A study of Rattus norvegicus with 8 samples.

Results

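The transcripts described here are those of the CREB family of transcription factors (Creb1, Crem and Atf1), of subunits of protein kinase A (Prkaca, Prkar1a and Prkar2b) and of cAMP phosphodiesterases (Pde4b and Pde4d), in rat PC12 cells with and without induction of a mutant huntingtin fragment. All probe sets whose annotation gives a single symbol among these 8 genes were taken, which were 15 of the 8799 probe sets on the array and represented 7 of the 4736 genes that the array names singly; no probe set was assigned to Atf1 alone. Of the 15, 9 passed a filter on low signal (a mean over the arrays of at least 36.0) and were tested, at least 1 for each of the 7 genes, and the other 6 are given as signals without a test. Of the 9, 1 passed the test, that of Prkar1a, a regulatory subunit of protein kinase A, which was 1.25-fold higher in induced cells, a call that held in 4 of 17 alternative fits.

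PC12 cells derive from a pheochromocytoma, a tumour of the rat adrenal medulla. The induced group had 4 samples of the PC12 line Htt14A2.5, titled +PA, and the uninduced group had 4 samples of the same line, titled -PA, each numbered 1 to 4 and each measured on 1 array. The source label of replicate 2 in both groups has another wording than that of the other samples. Cells of both groups carry the stable inducible construct for a truncated, mutant first exon of human huntingtin. The inducer was ponasterone (PA), given for 48 h; the descriptions of all 8 samples mention this induction, so the titles set the groups. Effects of ponasterone and of the transgene cannot be told apart in this design, all samples come from a single line, and neither the labels nor the files name the promoter that drives the construct or say how the replicates were grown. The p-values therefore measure the spread between these samples, which may be technical. RNA came from whole cultures, so fewer cells with a transcript and less of it per cell cannot be told apart.

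Cyclic AMP is made by adenylyl cyclases, which the G protein subunit Gs alpha stimulates, and is broken down by phosphodiesterases. It binds the regulatory subunits of protein kinase A and frees the catalytic subunits, which phosphorylate CREB1, CREM and ATF1. These factors bind the cAMP response element, TGACGTCA, as pairs, and recruit the coactivators CBP and p300 when phosphorylated. In PC12 cells raised cAMP is known to promote neurite growth and the transcription of neuropeptide genes, and in models of Huntington's disease this pathway has been studied because mutant huntingtin can bind CBP.

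Values are scaled signals, 1 per probe set and array on a linear scale, with the same trimmed mean of 501 on every array. The median signal of an array lay between 97.5 and 134.9. The 38 control probe sets for foreign or reverse-strand sequences had a 95th percentile between 102 and 183, called background below; the files hold no detection calls. Of the 15 probe sets, 4 lay above this level on all 8 arrays and 9 lay above it on none. Of the markers of chromaffin cells, Chgb had 12195 in induced and 10991 in uninduced cells, while Th, Ddc and Dbh, which define the catecholamine pathway, averaged 52.3, 23.8 and 10.8 in induced and 69.98, 31.0 and 7.93 in uninduced cells, below the background range. Slc18a1, a transporter that loads catecholamines into vesicles, had 213.7 in induced and 239.3 in uninduced cells, above background on 7 of 8 arrays. Of 6 fibroblast markers, Col1a1 and Col3a1 lay above background on all 8 arrays, Dcn on 1, and Col1a2, Lum and Postn on 0. The leukocyte marker Ptprc lay above background on 2 arrays, and the other measured markers of leukocytes, glia and adrenal cortex on 0. Of the markers tested, 0 passed limma in either direction, adjusted or at an unadjusted p under 0.05.

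Across the whole array, 433 of 6129 tested probe sets passed the test (limma, Benjamini-Hochberg adjusted p under 0.05), which is 7.06%, with 4.1% higher and 2.97% lower in induced cells. Of these calls 58.0% were higher, against 72.5% of the 229 calls when the arrays were centred on their medians. The 1 call among the 9 probe sets of the CREB and cAMP genes is 11.1%, near the share over all probe sets. At an unadjusted p under 0.05 there were 4 of 9 (44.4%), against 18% of all tested probe sets. In 3 of the 9 the induced and uninduced signals did not overlap, 1 higher and 2 lower in induced cells, against 13.6% of all tested probe sets (6.48% higher and 7.11% lower). The 2 lower ones, of Prkar2b and Pde4b, lay above background on 0 and 2 of the 8 arrays. Both are also among the 4 at an unadjusted p under 0.05. Of the 9 fitted differences 3 were positive and 6 negative, with a median log2 difference of -0.30, against -0.048 over all tested probe sets; probe sets of 1 gene read the same gene and do not count as separate evidence.

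**Figure D1:**
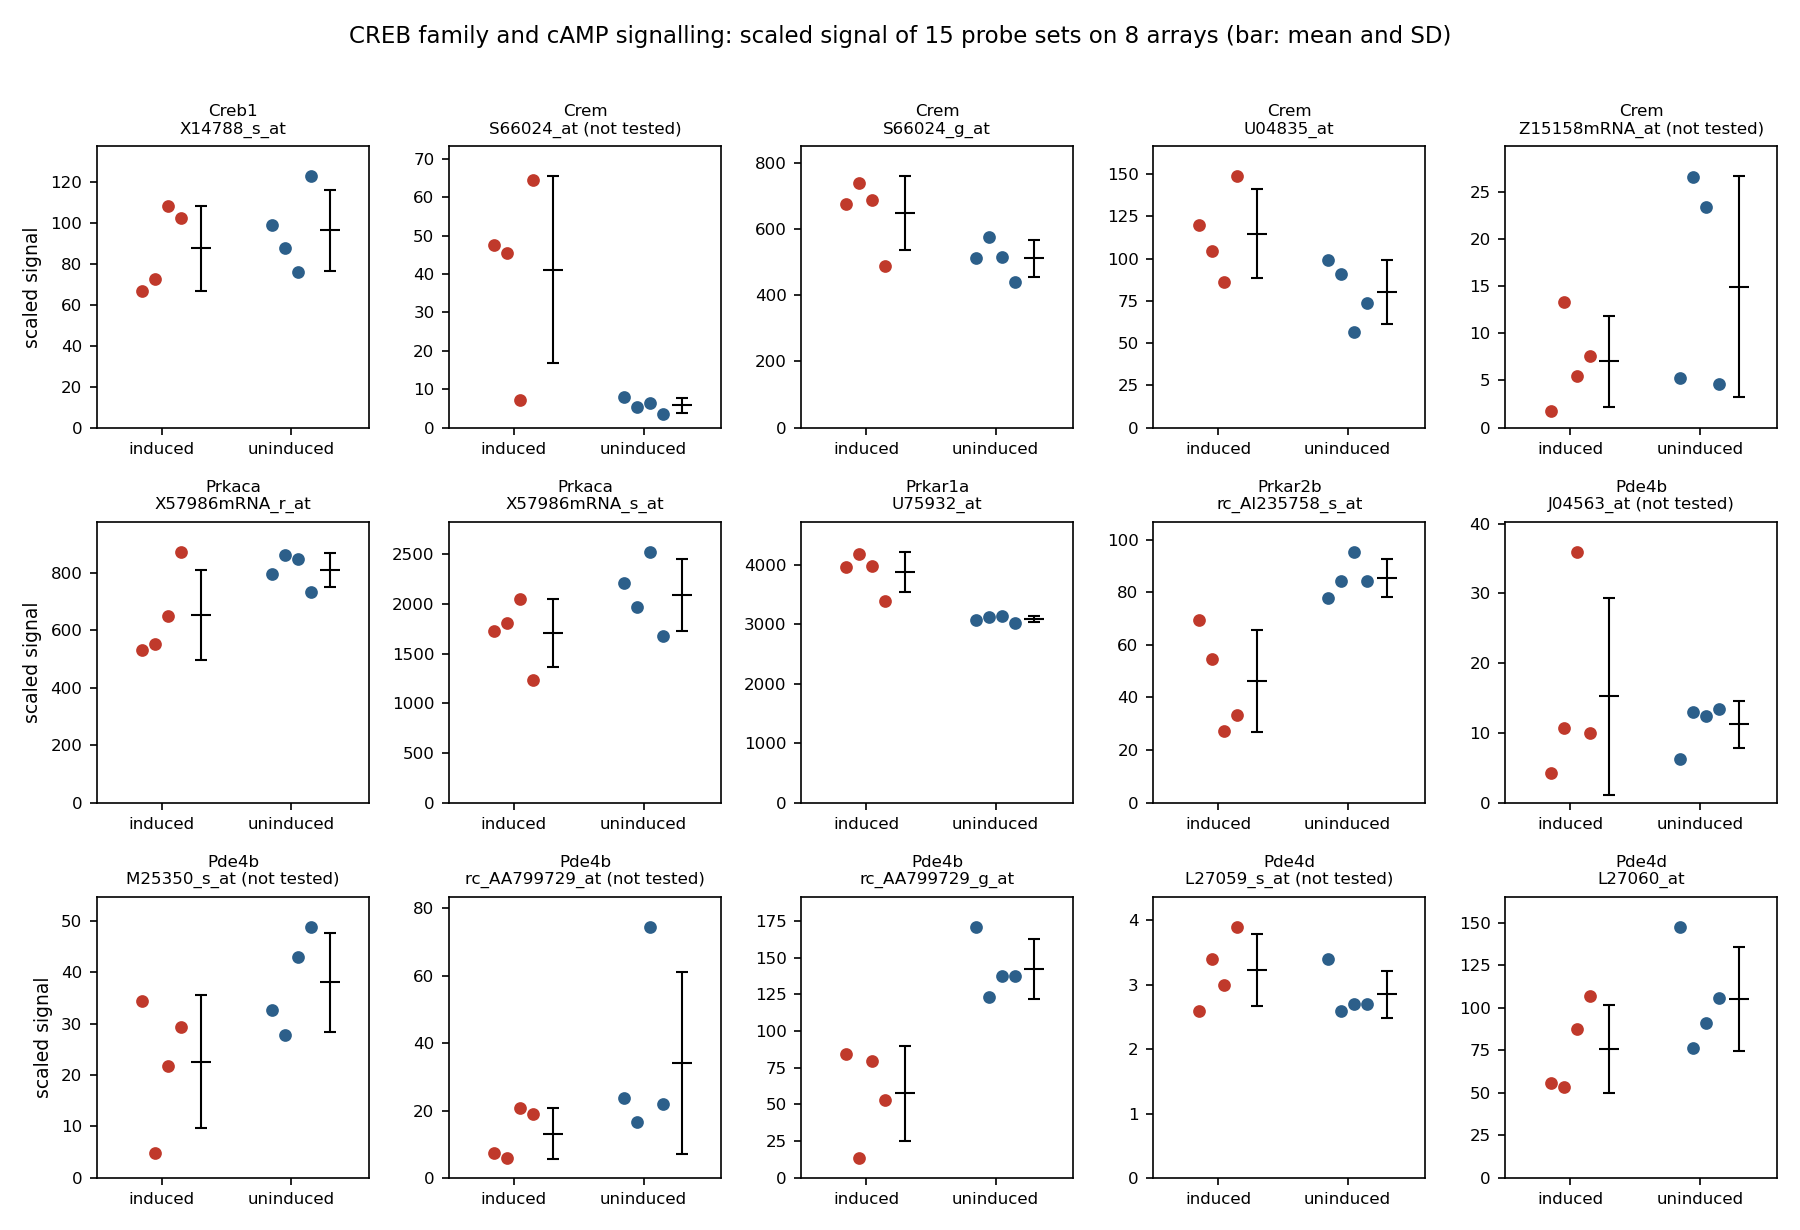
Scaled signal (linear, vertical axes from 0) of the 15 probe sets of 7 genes in 4 induced (left, red) and 4 uninduced (right, blue) samples; each point is an array and bars give the mean and SD. The induced arrays of Prkar1a lie between 3389 and 4190, all above the uninduced arrays at 3025 to 3138, and those of Prkar2b and of 1 Pde4b probe set all lie below the uninduced arrays.

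The transcription factors were Creb1 and Crem. Creb1 is the widely expressed activator of the family, and Crem makes both activators and, from an internal promoter, the short repressor ICER, which cAMP itself induces. Promoters of RefSeq (assembly GRCr8, 250 bases before to 50 bases after each annotated start) were found for 7 of the 8 genes, in 15 windows. They were searched on both strands for the full element TGACGTCA and for its shorter core TGACG; the full element reads the same on both strands and so holds 2 overlapping cores. The full element stood in 1.83% of all 33469 promoter windows of this length and the core in 21.2%. Of the windows of the 7 genes, 2 held the full element, both of Crem. They are shown with the first Creb1 window because these factors bind this element, with TGACG and its reverse complement in capitals:
Crem window 2, chr17:58984547-58984846, plus strand: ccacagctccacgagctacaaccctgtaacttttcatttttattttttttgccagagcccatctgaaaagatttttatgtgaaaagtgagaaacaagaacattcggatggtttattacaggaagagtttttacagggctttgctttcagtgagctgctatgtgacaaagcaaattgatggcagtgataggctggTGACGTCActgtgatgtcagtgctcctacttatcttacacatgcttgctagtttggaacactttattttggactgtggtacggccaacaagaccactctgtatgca
Crem window 3, chr17:58985240-58985539, plus strand: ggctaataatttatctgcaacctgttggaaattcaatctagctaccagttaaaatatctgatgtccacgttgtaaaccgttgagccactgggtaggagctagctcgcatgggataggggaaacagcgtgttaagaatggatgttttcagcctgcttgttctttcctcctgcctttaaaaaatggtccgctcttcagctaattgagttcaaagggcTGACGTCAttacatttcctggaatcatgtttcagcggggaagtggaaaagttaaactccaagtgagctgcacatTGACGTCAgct
Creb1 window 1, chr9:73397259-73397558, plus strand: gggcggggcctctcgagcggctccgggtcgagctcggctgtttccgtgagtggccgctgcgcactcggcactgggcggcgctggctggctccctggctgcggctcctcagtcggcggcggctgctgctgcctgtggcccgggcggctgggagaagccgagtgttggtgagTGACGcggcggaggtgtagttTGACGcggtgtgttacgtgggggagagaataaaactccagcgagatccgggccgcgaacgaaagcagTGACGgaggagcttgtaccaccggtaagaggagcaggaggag
Crem window 3 held the full element at 2 positions and Crem window 2 at 1, and Creb1 window 1 held 3 cores and no full element. The first Crem window held 2 cores, the Prkaca window 2, and 2 Pde4d windows held the core, while the windows of Prkar1a, Prkar2b and Pde4b none. A match of these letters is a description of the window, not a bound site.

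Creb1 had 1 probe set, X14788_s_at. Its signals were 66.7, 72.4, 108.0 and 102.3 in induced cells, against 98.6, 87.7, 75.9 and 122.5 in uninduced cells. The 2 groups overlapped, and all 8 values lay below background. The log2 difference was -0.14 ± 0.27 (limma SE; 95% interval -0.73 to 0.46; adjusted p = 0.872), so at this low signal the fit leaves changes of either sign within the interval.

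Crem had 4 probe sets, of which 2 were tested. S66024_g_at, above background on all 8 arrays, had 675.9, 740.8, 689.1 and 487.4 in induced cells, against 511.3, 575.7, 516.6 and 441.3 in uninduced cells. Induced replicates 1, 2 and 3 were the highest of the 8, and induced replicate 4 lay within the uninduced range. The log2 difference was 0.33 ± 0.15 (95% interval 0.000705 to 0.65; unadjusted p = 0.0496, limma adjusted p = 0.276), and it was not called in any of 17 alternative fits, with 0.26 to 0.46 on the log2 scale and adjusted p of at least 0.0571. U04835_at had 120.1, 104.5, 86.2 and 148.7 in induced cells, against 99.1, 90.8, 56.7 and 74.0 in uninduced cells. These groups overlapped, with a log2 difference of 0.49 ± 0.27 (adjusted p = 0.401), and only induced replicates 2 and 4 exceeded their background.

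The other Crem probe sets were not tested because of low signal. S66024_at, whose name points to the same sequence record, had 47.6, 45.5, 7.1 and 64.6 in induced cells, against 7.9, 5.3, 6.4 and 3.4 in uninduced cells. In 3 of the 4 induced samples the value was well above the uninduced ones, while induced replicate 3 lay among them, and all 8 were below background. Z15158mRNA_at ranged from 1.7 to 13.3 in induced and from 4.6 to 26.6 in uninduced cells, with overlap. The isoforms that each Crem probe set reads are not stated in the annotation used.

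Protein kinase A is a tetramer of regulatory and catalytic subunits. Prkar1a encodes the type I alpha regulatory subunit, the most widely expressed one, and had the only call among the 9. Its probe set U75932_at had 3965.9, 4189.9, 3973.7 and 3389.2 in induced cells, against 3066.4, 3115.2, 3138.0 and 3024.7 in uninduced cells. All 4 induced values lay above all 4 uninduced values, which varied little (3880 ± 343 in induced and 3086 ± 50.7 in uninduced cells, SD, n = 4 each). Prkar1a rose by a log2 difference of 0.33 ± 0.09 (95% interval 0.14 to 0.51; limma adjusted p = 0.0421), and the exact two-sided permutation test over the 70 assignments of the arrays gave p = 0.0286, the smallest it can give. The call is close to the threshold. Among the 8 leave-one-out fits it held in 1, without induced replicate 4 (adjusted p = 0.0138), and ended without any one of the other arrays (adjusted p from 0.0700 without uninduced replicate 4 to 0.135 without induced replicate 2), while the log2 difference stayed between 0.27 and 0.39 in all 17 alternative fits; it also ended with arrays centred on their medians (adjusted p = 0.365), quantile normalization (0.0605), no filter on low signal (0.0533), no intensity trend (0.161), the replicate number as a block (0.0826) or replicate 2 of both groups left out (0.261), so that it held in 4 of the 17.

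Prkaca encodes the alpha catalytic subunit, the kinase itself, and had 2 probe sets named for the same sequence record. X57986mRNA_s_at had 1731.9, 1804.1, 2048.5 and 1239.6 in induced cells, against 2206.8, 1968.0, 2526.9 and 1673.6 in uninduced cells. X57986mRNA_r_at had 532.4, 552.5, 650.9 and 873.9 in induced cells, against 796.8, 862.0, 849.1 and 733.7 in uninduced cells. Both had lower means in induced cells with overlapping groups. The log2 differences were -0.30 ± 0.16 (95% interval -0.65 to 0.05; adjusted p = 0.372) and -0.34 ± 0.15 (95% interval -0.67 to 0.00064; limma adjusted p = 0.278). Induced replicate 4 had the highest value of the second probe set and the lowest of the first; without it the second passed the test (log2 difference -0.48, adjusted p = 0.0365).

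Prkar2b encodes the type II beta regulatory subunit, known from brain and endocrine tissue. Its probe set rc_AI235758_s_at had 69.3, 54.6, 27.4 and 33.4 in induced cells, against 77.7, 84.2, 95.4 and 84.4 in uninduced cells. Every induced value lay below every uninduced value, and all 8 lay below background. The log2 difference was -0.87 ± 0.34 (95% interval -1.60 to -0.13; unadjusted p = 0.0247, limma adjusted p = 0.186) and was not called in any of 16 alternative fits. The exact permutation p was 0.0286, again the smallest possible.

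**Figure D2:**
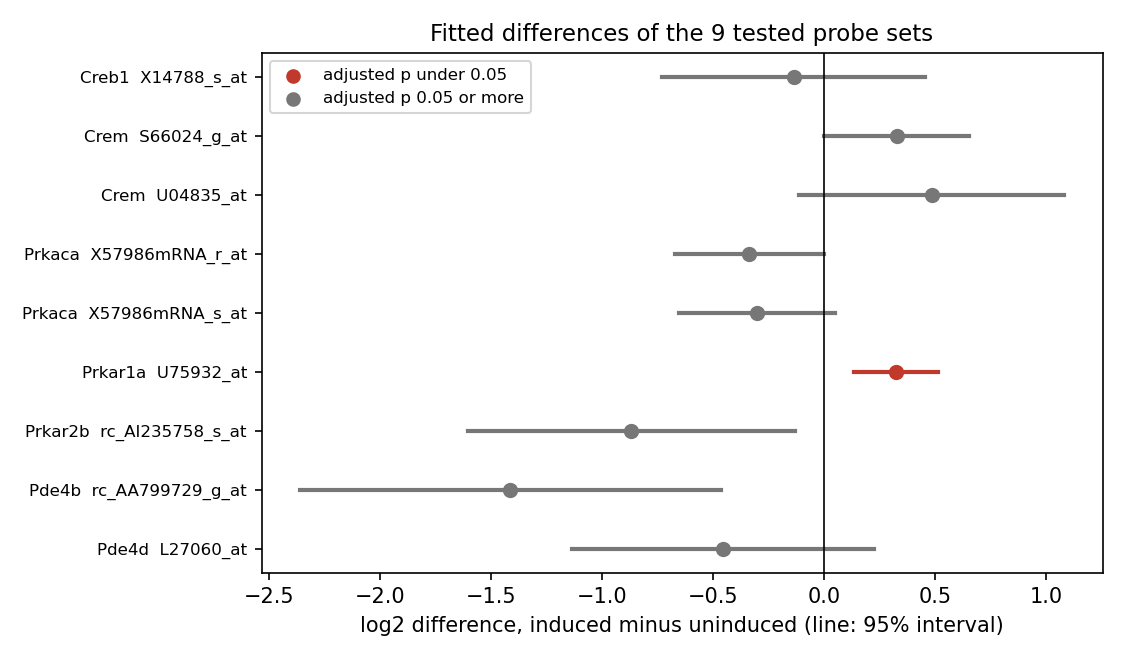
Fitted log2 differences, induced minus uninduced, of the 9 tested probe sets (points) with 95% intervals (lines), not adjusted for the number of probe sets; red marks an adjusted p under 0.05. Prkar1a at 0.33 is the 1 in red, and the interval of Pde4b, from -2.36 to -0.46, is the widest.

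Pde4b and Pde4d encode cAMP-specific phosphodiesterases of the rolipram-sensitive type, which end the cAMP signal. Of the 4 Pde4b probe sets 1 was tested, rc_AA799729_g_at, with 84.3, 13.3, 79.6 and 53.0 in induced cells, against 170.9, 123.0, 137.1 and 137.7 in uninduced cells. The groups did not overlap, and only uninduced replicates 3 and 4 exceeded their background. The log2 difference was -1.41 ± 0.43 (unadjusted p = 0.00714, limma adjusted p = 0.0832), which was not called in any of 16 alternative fits (adjusted p from 0.0528 to 0.194, log2 difference from -1.65 to -0.93). Without induced replicate 2 the log2 difference was -0.93, and with 32 in place of 7 added to the signals it was -1.04.

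The other Pde4b probe sets stayed under the filter. M25350_s_at had 34.3, 4.8, 21.7 and 29.4 in induced cells, against 32.6, 27.7, 43.0 and 48.8 in uninduced cells. rc_AA799729_at, named for the same record as the tested one, ranged from 5.8 to 20.7 in induced and from 16.6 to 74.5 in uninduced cells, and J04563_at from 4.3 to 36.0 in induced and from 6.2 to 13.4 in uninduced cells. Each overlapped between the groups and lay below background on all 8 arrays. Pde4d had 1 tested probe set, L27060_at, with 55.8, 53.3, 87.4 and 106.9 in induced cells, against 147.7, 76.7, 91.1 and 106.1 in uninduced cells, all below background. The groups overlapped (log2 difference -0.45 ± 0.31, limma adjusted p = 0.506). L27059_s_at of Pde4d ranged from 2.6 to 3.9 in induced and from 2.6 to 3.4 in uninduced cells, with overlap and below background on all 8 arrays.

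The 3 tested probe sets with the lowest p were compared with the 5052 filtered probe sets that have 1 symbol of another gene, by the root-mean-square difference between log2 profiles over the 8 arrays, each centred on its own mean. The profiles most like that of Prkar1a were those of Arf1 (0.0542 log2 units), Tars1 (0.0621) and Hyou1 (0.0647), whose log2 differences of 0.26, 0.30 and 0.26 were not called. For Prkar2b they were those of Psat1 (0.176), Rnf130 (0.193) and Arhgap1 (0.197), of which Psat1 and Rnf130 fell, by 0.98 and 0.74 on the log2 scale. For Pde4b they were those of Atp2b2 (0.387), Shld2 (0.457) and Doc2b (0.466), a wider distance, and Doc2b fell by 1.46. Likeness over 8 arrays is a description.

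The other genes of the pathway were read from 5 lists, with 1 probe set per gene, the one with the highest mean signal. Of all 3623 genes tested, 7.2% were called, 156 higher and 105 lower in induced cells, with a median log2 difference of -0.054. In the list for cAMP production (G proteins, adenylyl cyclases and receptors), 16 of 30 genes were tested, of which 0 rose, 1 fell and 15 were not called, at a median of -0.083. Adenylyl cyclases had no call, with Adcy6 at 436.9 ± 73.6 in induced and 461.8 ± 31.6 in uninduced cells (SD, n = 4 each). Adrb3 and Gnai2 had the next lowest p, with log2 differences of -1.04 and -0.16 (limma adjusted p = 0.327 and 0.438). Adrb3 lay above background on only 1 induced and 2 uninduced arrays.

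The gene that fell was Gnas, which encodes Gs alpha. It had 4 probe sets, and 3 of them fell. L10326_at had 205.6, 208.8, 256.6 and 245.0 in induced cells, against 369.0, 405.5, 398.1 and 504.6 in uninduced cells. X84047cds_at had 14440, 14297, 14835 and 11706 in induced cells, against 18226, 19041, 20104 and 17313 in uninduced cells. rc_AI237836_g_at, which represents the gene, had 23017, 21220, 23922 and 21109 in induced cells, against 26784, 26899, 27982 and 27242 in uninduced cells. In each of these 3 every induced array was below every uninduced array, with log2 differences of -0.85, -0.44 and -0.29 (limma adjusted p = 0.00509, 0.0141 and 0.0441). The last probe set, rc_AI237836_at, had a log2 difference of -0.23 and overlapping groups (adjusted p = 0.486). In the 8 fits without 1 array L10326_at passed in all, X84047cds_at in all but the one without uninduced replicate 3 (adjusted p = 0.0554), and rc_AI237836_g_at in 1 (without induced replicate 3; adjusted p up to 0.138, without induced replicate 2). With arrays centred on their medians only L10326_at of the 3 passed. Without replicate 2 of both groups none of the 3 passed (limma adjusted p = 0.0570, 0.101 and 0.277). Over all 17 alternative fits the calls of L10326_at, X84047cds_at and rc_AI237836_g_at held in 16, 13 and 4. All 4 probe sets kept a negative difference in every alternative fit. The Gnas locus makes several overlapping transcripts, and the annotation used does not say which of them each probe set reads.

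**Figure D3:**
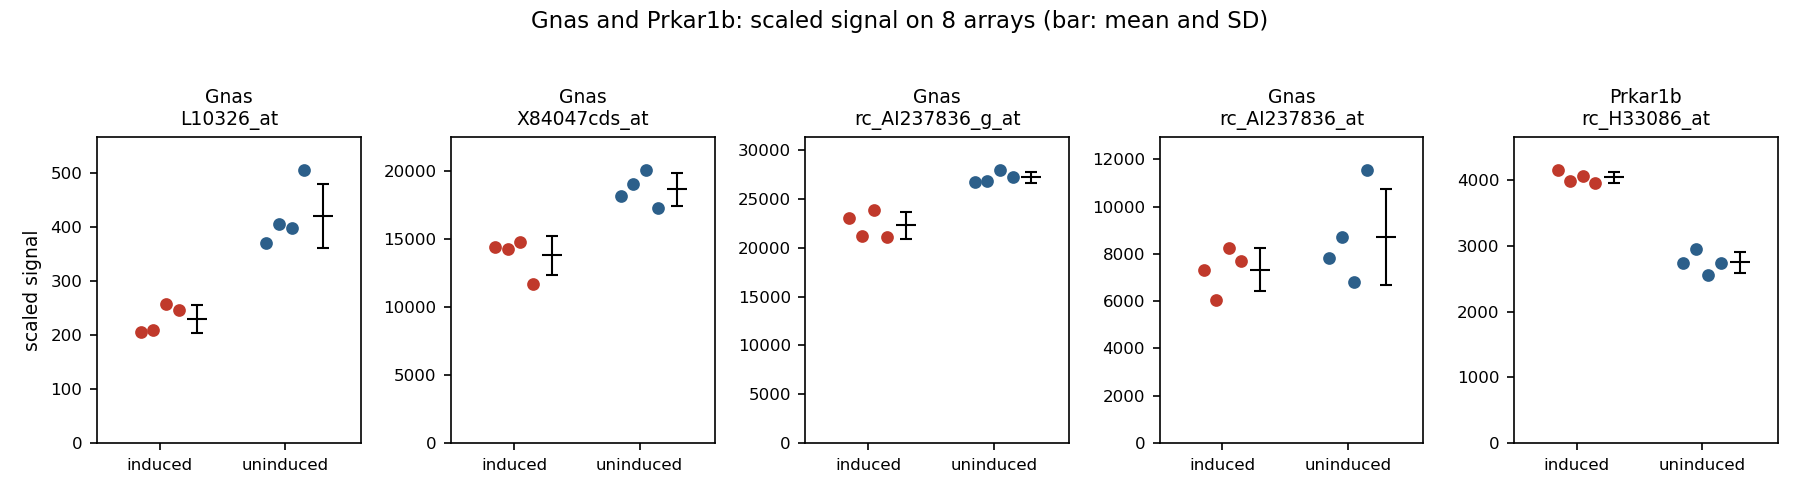
Scaled signal (linear, vertical axes from 0) of the 4 Gnas probe sets and of Prkar1b in 4 induced (left, red) and 4 uninduced (right, blue) samples; each point is an array and bars give the mean and SD. The groups are apart in the first 3 Gnas panels and in Prkar1b, where the induced arrays lie at 3957 to 4157 and the uninduced ones at 2560 to 2956, and overlap in the fourth Gnas panel.

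In the list of other protein kinase A subunits, inhibitors and anchoring proteins, 9 of 24 genes were tested, of which 1 rose, 0 fell and 8 were not called, at a median of -0.11. The gene that rose was Prkar1b, the type I beta regulatory subunit, known from the nervous system. It had 4156.7, 3990.5, 4069.0 and 3956.5 in induced cells, against 2741.4, 2955.5, 2559.8 and 2737.3 in uninduced cells. The groups were well apart (log2 difference 0.56 ± 0.08, limma adjusted p = 0.00095), and the call held in all 17 alternative fits (adjusted p up to 0.0412). The call of the other type I regulatory subunit, Prkar1a, held in 4 of its 17 alternative fits. The type II alpha gene Prkar2a had 409 ± 102 in induced and 439 ± 100 in uninduced cells (adjusted p = 0.878). The beta catalytic subunit Prkacb had a log2 difference of -0.19 (adjusted p = 0.491). The kinase inhibitor Pkia, at -0.35, and the cAMP-binding exchange factor Rapgef3, at -0.95 and below background, had adjusted p of 0.175 and 0.316.

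Of the other phosphodiesterases, 7 of 22 were tested and 0 were called in either direction by limma, also 0 at an unadjusted p under 0.05, at a median of 0.016. Pde6d had a log2 difference of -0.26, Pde4c one of 0.48 and Pde2a one of 0.34 (adjusted p from 0.429 to 0.473). Pde4a, a close relative of Pde4b and Pde4d, had 459 ± 61.8 in induced and 452 ± 40.6 in uninduced cells (log2 difference 0.015).

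Of CREB cofactors, kinases that act on CREB and related bZIP factors, 8 of 35 were tested, of which 1 rose, 1 fell and 6 were not called, at a median of -0.16. Camk2d, the delta subunit of calcium/calmodulin kinase II, rose by 0.52 ± 0.11 on the log2 scale, with 1721.9, 1456.3, 1771.0 and 1567.5 in induced cells, against 1069.7, 1062.9, 1104.4 and 1316.0 in uninduced cells (adjusted p = 0.0116). It passed in all 8 fits without 1 array and in 14 of 17 alternative fits in all; the call ended with arrays centred on their medians (adjusted p = 0.0678), with no intensity trend (0.0558) and without replicate 2 of both groups (0.0569). Its other tested probe sets had log2 differences of 0.51, 0.11 and -0.024 that were not called. When the tested probe sets of each gene were averaged, which is not among the 17 fits, 0 genes of this list rose. The call of Camk2d therefore ended there too. Camkk1, the kinase that activates calcium/calmodulin kinases I and IV, fell by 0.44 ± 0.12 on the log2 scale, with 544.7, 549.9, 620.1 and 567.3 in induced cells, against 833.8, 682.4, 727.0 and 884.7 in uninduced cells (adjusted p = 0.0429). That call held in 1 of 8 fits without 1 array, the one without uninduced replicate 2 (adjusted p up to 0.118, without uninduced replicate 1). In all, the Camkk1 call held in 5 of 17 alternative fits. It also ended with arrays centred on their medians (adjusted p = 0.168), no intensity trend (0.0913) and no filter on low signal (0.0504). The same was true with the replicate number as a block (0.0965) and without replicate 2 of both groups (0.123). Camk2g had a log2 difference of -0.48 (adjusted p = 0.245). Crebbp and Ep300 had no probe set with their symbol alone.

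Of 40 genes known as CREB targets 28 were tested, of which 5 rose, 0 fell and 23 were not called, at a median log2 difference of 0.16, beside -0.054 over all genes. The 17.9% called stands beside 7.2% of all genes tested. Many of these genes also answer other signals, and their choice was made with earlier results of these data known. Those that rose were Vgf, Dusp1, Dusp6, Egr1 and Atf3, with log2 differences of 2.74, 2.43, 1.97, 1.83 and 1.67 (limma adjusted p from 2.9e-08 to 0.0201). Other Dusp1 probe sets rose by 2.29 and 1.82 on the log2 scale, and other Egr1 probe sets by 2.46 and 1.76. The Egr1 probe set U75398_s_at, at 0.28, and the other Dusp6 probe set, at 1.28, were not called (limma adjusted p = 0.564 and 0.0964). Dusp6, an ERK phosphatase, had 65.2, 105.9, 136.2 and 94.9 in induced cells, against 13.1, 15.7, 11.1 and 53.7 in uninduced cells. Only 2 of the 4 induced values and 0 of the uninduced ones exceeded background, so the size of its difference is uncertain: the log2 difference of 1.97 was 1.29 with 32 and 2.31 with 1 added to the signals in place of 7. Its call held in 3 of the 8 fits without 1 array (without induced replicate 1 or 4 or uninduced replicate 4; adjusted p up to 0.0729, without induced replicate 3) and ended without replicate 2 of both groups (adjusted p = 0.143). The uninduced mean of Dusp6, 23.4, lay under the limit of the filter on low signal, which it passed through its induced mean of 100.55. With the filter at the 50th percentile Dusp6 was not tested, and 4 of 19 targets were called. Among the 23 targets not called, Odc1 and Ccnd1 had the lowest p, with log2 differences of 0.39 and 0.35 (limma adjusted p = 0.117 and 0.157). At an unadjusted p under 0.05, 7 targets were higher and 0 lower, beside 328 higher and 352 lower of all 3623 genes tested. Fos had 662 ± 100.4 in induced and 537 ± 45.9 in uninduced cells (SD, n = 4 each, limma adjusted p = 0.285). Per2 had 234 ± 35.7 in induced and 178 ± 18.6 in uninduced cells, and Nr4a1 had 142 ± 78.6 in induced and 186 ± 27.3 in uninduced cells (limma adjusted p = 0.314 and 0.498). Of the neuropeptide precursor genes named here, Pdyn lay above background on all 8 arrays, with 2033 ± 481 in induced and 2261 ± 155 in uninduced cells (SD, n = 4 each; limma adjusted p = 0.605), while Sst, Penk and Npy lay below background in both groups.

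**Figure D4:**
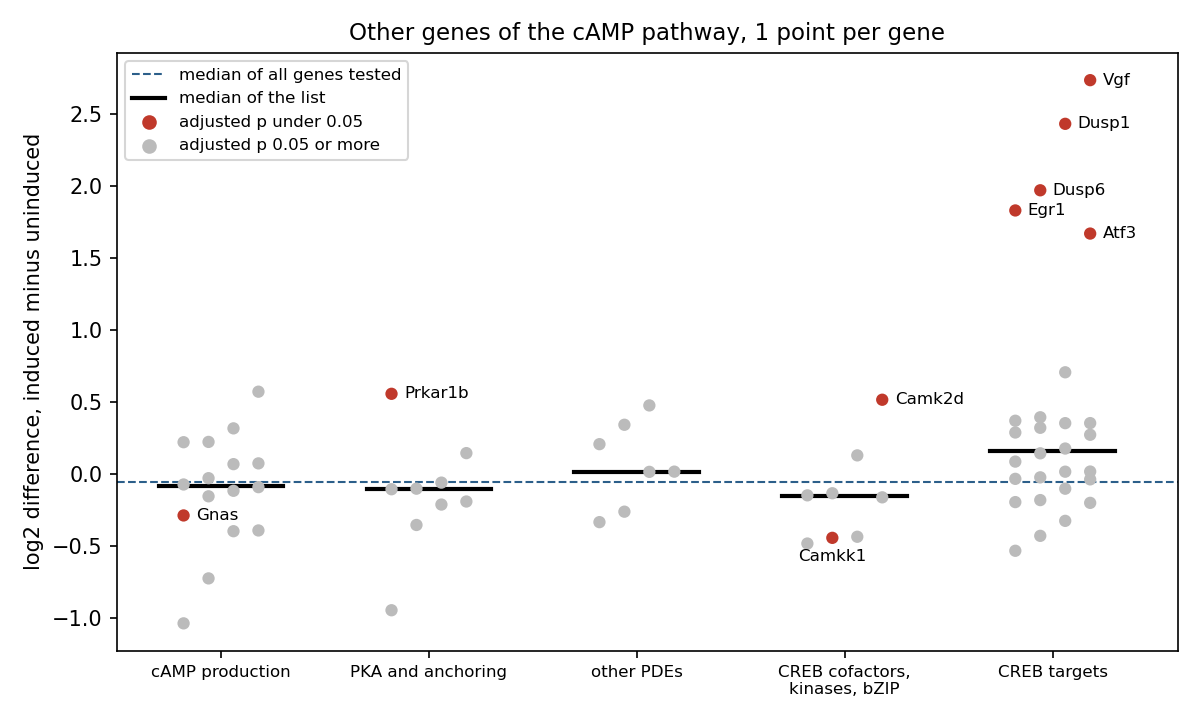
Log2 difference, induced minus uninduced, of each tested gene (points) in 5 lists of the cAMP pathway; red points passed the test, black lines are list medians and the dashed line is the median of all genes tested. The 5 genes above 1.5 are all in the list of CREB targets, and the calls in the other lists lie between -0.44 and 0.56.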

How the data were processed

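RNA of 8 samples was measured on 8 Affymetrix rat arrays. The table deposited by the authors holds intensities on a linear scale, already brought to a shared trimmed mean (2% from each end) as the values show; the software is not given in the sources used here. Symbols came from a platform annotation table: 7018 probe sets had 1, 308 had several and 1473 had none. Signals were transformed to log2 after adding 7, their rounded 10th percentile. The 59 controls and 2611 probe sets with a mean under the 30th percentile (36.0) were left out, and the remaining 6129 went into limma 3.58.1 under R 4.3.3 (lmFit, eBayes with an intensity trend; 6 residual and 5.77 prior degrees of freedom), with Benjamini-Hochberg adjustment over all 6129 and a threshold of 0.05. Log2 differences carry this fit's standard errors, errors of signals are SDs, and folds include the added 7. The fit was tested on simulated data. The number of arrays limits the precision. The members and lists were chosen with earlier results of these data known. Genes named from the lists are every gene called and the 3 with the lowest p in each list. Adcy6, Prkacb, Prkar2a, Pde4a, Fos, Odc1, Ccnd1, Per2, Nr4a1, Pdyn, Sst, Penk, Npy, Crebbp and Ep300 were added after their values were seen. Replicate numbers gave no clear sign of pairing: deviations from the group means correlated between same-numbered arrays at -0.14, 0.058, -0.085 and 0.19. The highest correlations of induced replicates 1 to 4 with an uninduced array of another number were 0.20, 0.12, 0.066 and 0.14. These values cannot show whether samples were grown or processed in pairs. No sample column was left unused, and no 2 arrays held identical values. Alternatives changed the added constant, the filter, the array scaling, the variance model, the replicate block, the arrays used, the test and the choice of probe set.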

Additional observations from a re-analysis of the deposited data

Results flagged for a closer look

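In each group of 4 arrays, the highest or lowest value was set against the others for the 15 probe sets and some list genes. These list genes were those called and the 3 with the lowest p in each list. Of 70 groups in all, 11 had a value far from the other 3 (by Dixon's criterion on the gap to the nearest value). Chance alone flags about 1 group in 20. Among the CREB and cAMP genes these were uninduced replicate 1 of Pde4b (J04563_at, 6.2), uninduced replicate 3 of Pde4b (rc_AA799729_at, 74.5) and uninduced replicate 1 of Pde4d (L27059_s_at, 3.4), all on probe sets that were not tested and lay below background. Among the genes that rose, Atf3 had 796.8 in induced replicate 2 and 272.5 in uninduced replicate 4, Dusp6 had 53.7 in uninduced replicate 4, Camk2d had 1316.0 in uninduced replicate 4 and Vgf had 1184.2 in uninduced replicate 2. Among genes that were not called, Adrb3 had 216.7 in induced replicate 4, Gnai2 had 9033.9 in uninduced replicate 4 and Pde2a had 192.6 in uninduced replicate 1. Uninduced replicate 4 supplied 4 of the 11 values.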

How the results depend on the processing

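The 9 tested probe sets of the CREB and cAMP genes kept the sign of their differences in every alternative fit that held them (16 or 17 each; the filter at the 50th percentile left 4 of the 9), and their calls were few and close to the threshold. The count of calls was 1, that of Prkar1a. It was 0 with no filter on low signal, with arrays centred on their medians, with quantile normalization, with no intensity trend, with the replicate number as a block (replicate block: 0 of 9, and Prkar1a at adjusted p = 0.0826) and with both arrays numbered 2 left out, since their source label has another wording. It was 0 to 2 in the fits without 1 array, and 3 by the unadjusted exact permutation test, whose smallest p is 0.0286. These 3 are the probe sets whose groups did not overlap, as was the case for 13.6% of all tested probe sets. The count over all tested probe sets, 433, was 229 with median centring, 279 with no trend, 221 without replicate 2 of both groups and 367 under the block. The call in the cAMP production list (1, Gnas) was 0 with no filter, median centring, quantile normalization, no trend, the replicate block or replicate 2 of both groups left out, and 0 to 1 without 1 array. The calls among CREB cofactors and kinases (2) were 1 with no filter, under the replicate block or averaging all probe sets of each gene, 0 with median centring, no trend or replicate 2 of both groups left out, and 1 to 2 without 1 array. The counts for the other 3 lists stayed within 1.5 times of the main ones. Fewer arrays leave fewer degrees of freedom; the cause of the other changes was not tested. Low signal limits Creb1, Prkar2b, Pde4b, Pde4d and most Crem probe sets: changes there cannot be sized well on these arrays.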
